A study of Mus musculus with 22 samples.

Results

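The 10 immediate early genes Fos, Jun, Junb, Atf3, Egr1, Klf6, Ier2, Ier3, Dusp1 and Btg2 were read from a table of RPKM (read counts adjusted for gene length and sequencing depth) with 18716 rows, where each had 1 row chosen by its symbol. The table covers 22 livers of mice labelled Fah-/-, which lack the enzyme that ends the tyrosine degradation pathway. The 7 YC livers and the 8 vehicle livers came from recipients of hepatocytes labelled td, given an agent labelled YC or vehicle, and were taken at day 28 after withdrawal of NTBC, a drug that stops that pathway upstream of Fah and so protects these animals. The 7 D0 livers were taken at day 0 and are labelled as normal liver. All 3 groups share the Fah-/- genotype. The sources used here do not give the age and sex of the animals, what YC and td stand for, or the clock time of sampling. No label says that each library is a separate animal, and p-values cover only the variation among these libraries, part of which may be technical. All 10 genes passed the filter on low values (at least 0.5 RPKM in at least 7 libraries), which 12537 genes passed in all. On mm10, in the GENCODE M21 annotation, Fos spans chr12:85473890-85477273, Jun chr4:95049034-95052222, Junb chr8:84974484-84978718, Ier2 chr8:84661331-84662852, Atf3 chr1:191170296-191218039 and Btg2 chr1:134075170-134079120. Egr1 spans chr18:34859823-34864984, Klf6 chr13:5861482-5870394, Ier3 chr17:35821684-35822923 and Dusp1 chr17:26505590-26562128.

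Immediate early genes are transcribed within minutes of a stimulus, without new protein synthesis, when signalling kinases activate factors already bound at their promoters. Fos and Jun proteins pair as the transcription factor AP-1, and Junb and Atf3 encode related leucine zipper factors. Egr1 and Klf6 encode zinc finger transcription factors, and Ier2 a nuclear protein of the early response. Dusp1 encodes a phosphatase that switches the kinases off again, Btg2 an antiproliferative protein that p53 can induce, and Ier3 a regulator of cell survival. In the liver these genes are known for their burst after partial hepatectomy, ischemia or handling of the tissue.

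Promoter stretches of 4 members are shown because the results below turn on them. Fos and Dusp1 stood furthest above the other D0 livers in D0 1 and D0 2, Btg2 was high there and in most YC livers, and Ier3 was the member whose YC and vehicle livers did not overlap. The sequences are from RefSeq on build GRCm38.p6, 5′ to 3′ on the gene's strand, and leave out bases that the GENCODE annotation places in an exon of the gene. Fos is from chr12:85473640-85473889 on the plus strand, Dusp1 from chr17:26508520-26508722 on the minus strand, Btg2 from chr1:134079156-134079405 on the minus strand and Ier3 from chr17:35821463-35821683 on the plus strand. Capitals mark TGACGT on either strand, the core of the cAMP response element, and the run TGACGTCA holds it on both strands.
Fos: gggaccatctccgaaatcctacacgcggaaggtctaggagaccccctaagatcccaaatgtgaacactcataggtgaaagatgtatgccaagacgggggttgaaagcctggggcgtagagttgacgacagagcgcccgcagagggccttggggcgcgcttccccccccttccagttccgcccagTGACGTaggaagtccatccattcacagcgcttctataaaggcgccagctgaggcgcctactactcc
Dusp1: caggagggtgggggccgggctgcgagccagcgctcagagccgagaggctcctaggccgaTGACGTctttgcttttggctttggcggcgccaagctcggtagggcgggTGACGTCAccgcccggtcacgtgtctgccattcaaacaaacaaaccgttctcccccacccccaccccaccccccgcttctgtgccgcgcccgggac
Btg2: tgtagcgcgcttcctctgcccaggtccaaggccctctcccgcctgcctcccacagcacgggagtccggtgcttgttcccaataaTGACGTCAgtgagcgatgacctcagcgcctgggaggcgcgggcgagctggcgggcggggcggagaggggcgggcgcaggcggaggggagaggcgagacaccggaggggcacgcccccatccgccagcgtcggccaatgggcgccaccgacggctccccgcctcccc
Ier3: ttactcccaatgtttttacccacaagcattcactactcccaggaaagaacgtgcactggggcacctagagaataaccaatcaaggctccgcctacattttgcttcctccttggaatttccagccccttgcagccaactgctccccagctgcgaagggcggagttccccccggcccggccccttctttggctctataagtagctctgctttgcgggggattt
In the 250 bases before the start, read on both strands, TGACGT was present in 4 of the 8 members matched in the RefSeq table (Fos, Dusp1, Btg2 and Atf3) and in 6.47% of 32851 promoters. Btg2 and Dusp1 held the full palindrome TGACGTCA, present in 1.55% of promoters. None of the 8 held the AP-1 element TGANTCA (6.75% of promoters) or the CArG box bound by serum response factor (1.47%) in this window. At shares this low, absence from 8 promoters does not set these genes apart, and bases further upstream were not searched. The Fos match lay at 66 to 61 bases before the start and the Dusp1 palindrome at 143 to 136. Egr1 and Ier2 were not among the matched members.

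Before the comparisons, the libraries themselves were examined, because D0 1 and D0 2 stood apart from the other D0 livers in most of the 10 genes. Fos had 26.9 and 52.4 RPKM in D0 1 and D0 2, against 1.43 to 2.97 RPKM in the other 5 D0 livers, or 15.1 and 29.5 times their median. These libraries were singled out for their Fos, so the Fos value is a description. Dusp1, the phosphatase gene, had 63.2 and 80.7 RPKM, against 10.7 to 14.0 RPKM in the other D0 livers. Jun had 51.3 and 85.8 RPKM, against 14.9 to 25.9 RPKM. Btg2 had 22.3 and 49.7 RPKM, against 7.73 to 10.8 RPKM. In these 4 genes the lower of D0 1 and D0 2 lay above the highest of the other 5 livers.

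Atf3, at 28.5 and 48.8 RPKM in D0 1 and D0 2 against 8.49 to 16.4 RPKM, and Junb, at 29.4 and 52.3 against 8.44 to 15.3 RPKM, showed the same order. Ier3 had 6.39 and 11.9 RPKM, against 4.04 to 5.55 RPKM. Klf6 had 15.8 and 19.2 RPKM, against 6.76 to 14.6 RPKM. Egr1 did not separate the libraries in this way, because D0 5 held 59.0 RPKM beside 56.8 RPKM in D0 1 and 137 RPKM in D0 2. Ier2 had 48.0 RPKM in D0 1, inside the range of 31.1 to 57.5 RPKM of the other 5 livers, and 100 RPKM in D0 2. D0 2 exceeded D0 1 in all 10 genes.

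**Figure D1:**
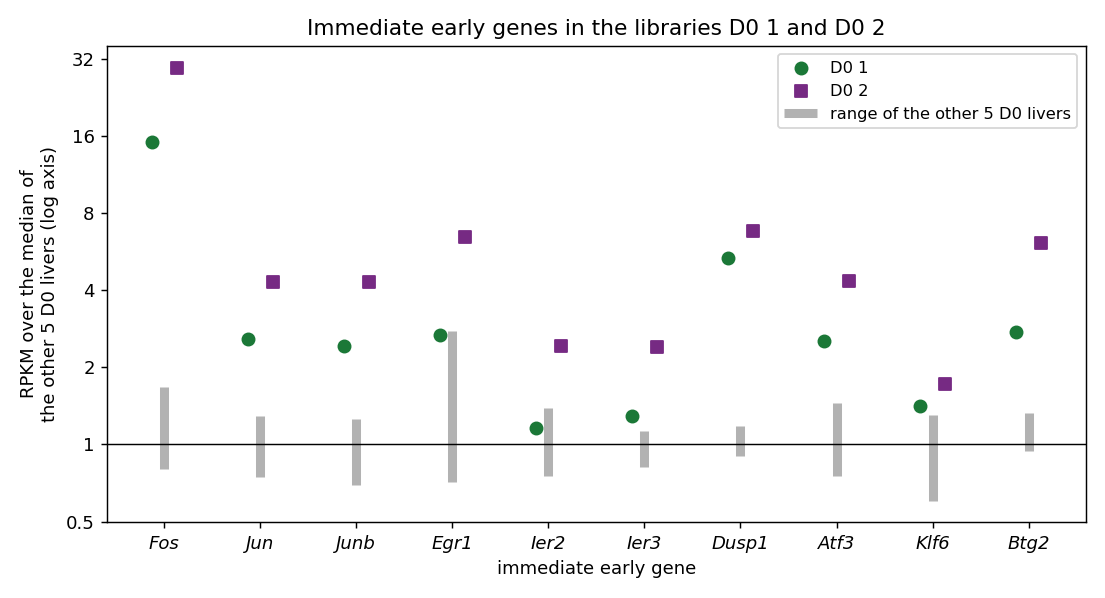
Level of each immediate early gene in the libraries D0 1 (circles) and D0 2 (squares) as a multiple of the median of the other 5 D0 livers, on a log axis, with grey bars for the range of those 5 livers. Fos stands at 15.1 and 29.5 and Dusp1 at 5.33 and 6.80, while Egr1 and Ier2 in D0 1 lie inside the grey range.

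Leaving out Fos, by which the libraries were singled out, both were above all the other 5 D0 livers in 7 of the 9 remaining genes, a pattern found in 7.21% of the 12537 genes tested. In 5 of these 9 (Jun, Junb, Dusp1, Atf3 and Btg2) both were also at least 2-fold above the others' median, which held for 53 genes or 0.423% of all. Of 38 tested genes in a list of other immediate early genes, 16 lay above and 8 were also 2-fold above. Named after their values were seen, these 8 were Nr4a1, Klf2, Klf4, Dusp5, Ctgf, Rhob, Csrnp1 and Sgk1. Nr4a1, an orphan nuclear receptor gene, had 9.34 and 15.2 RPKM in D0 1 and D0 2, against 0.596 to 0.845 RPKM in the other D0 livers. Of 25 genes for the kinases and factors upstream, such as Srf and Creb1, 0 lay above in both.

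Other transcripts stood apart in the same libraries. Of 10 heat shock genes, 4 lay above in both D0 1 and D0 2, beside 7.21% of all genes. Hspa1a and Hspa1b, inducible heat shock proteins, were at least 2-fold above the others' median, and Hspd1 and Hsph1 were under 2 times. Dnajb1, at 19.7 and 17.7 RPKM against 21.6 to 28.6 in the other 5 D0 livers, lay below. The summed RPKM of 10 neutrophil genes was 15.7 in D0 1 and 58.2 in D0 2, against 5.15 to 13.9 in the other 5 D0 livers. Most of it was S100a8 and S100a9, at 4.62 and 7.62 RPKM in D0 1 and 19.5 and 28.8 RPKM in D0 2. Of 9 neutrophil genes tested, 2 lay above in both libraries, Retnlg and S100a9, each at least 2-fold. Csf3r, at 0.605 and 1.02 RPKM, and Mpo, at 0.0368 and 0 RPKM, were not above the others' medians of 1.02 and 0.0436 RPKM. Of 9 markers of sinusoidal endothelium, 3 lay above in both libraries: Lyve1, a hyaluronan receptor gene, at 5.63 and 4.67 times the others' median, and Kdr and Pecam1, both under 2 times. Summed over all 9 markers, RPKM was 179 in D0 1 and 224 in D0 2, within the range of 130 to 234 of the other 5. The summed RPKM of 10 macrophage genes was 102 and 153, within the range of 90.4 to 168 of the other 5. Sums of 8 bile duct genes, 33.4 in D0 1 and 41.5 in D0 2, lay below the range of 45.9 to 58.2. Sums of 10 lymphocyte genes were 4.84 and 7.09, against 6.94 to 10.9. Those of 9 stellate and matrix genes were 25.1 and 18.1, against 21.5 to 37.2. Sums of 10 hepatocyte genes, Alb among them, were 64408 and 58619, against 45323 to 59193. Of 11 clock genes, 2 lay above in both libraries (Cry1 and Per1). Nr1d1, at 3.57 and 5.99 RPKM against 18.5 to 30.3, and Dbp, at 0.665 and 0.733 against 1.95 to 5.53, lay below. The part of these transcripts in the high immediate early levels was not tested. In bulk tissue, fewer cells of a type and less RNA per cell cannot be told apart.

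**Figure D2:**
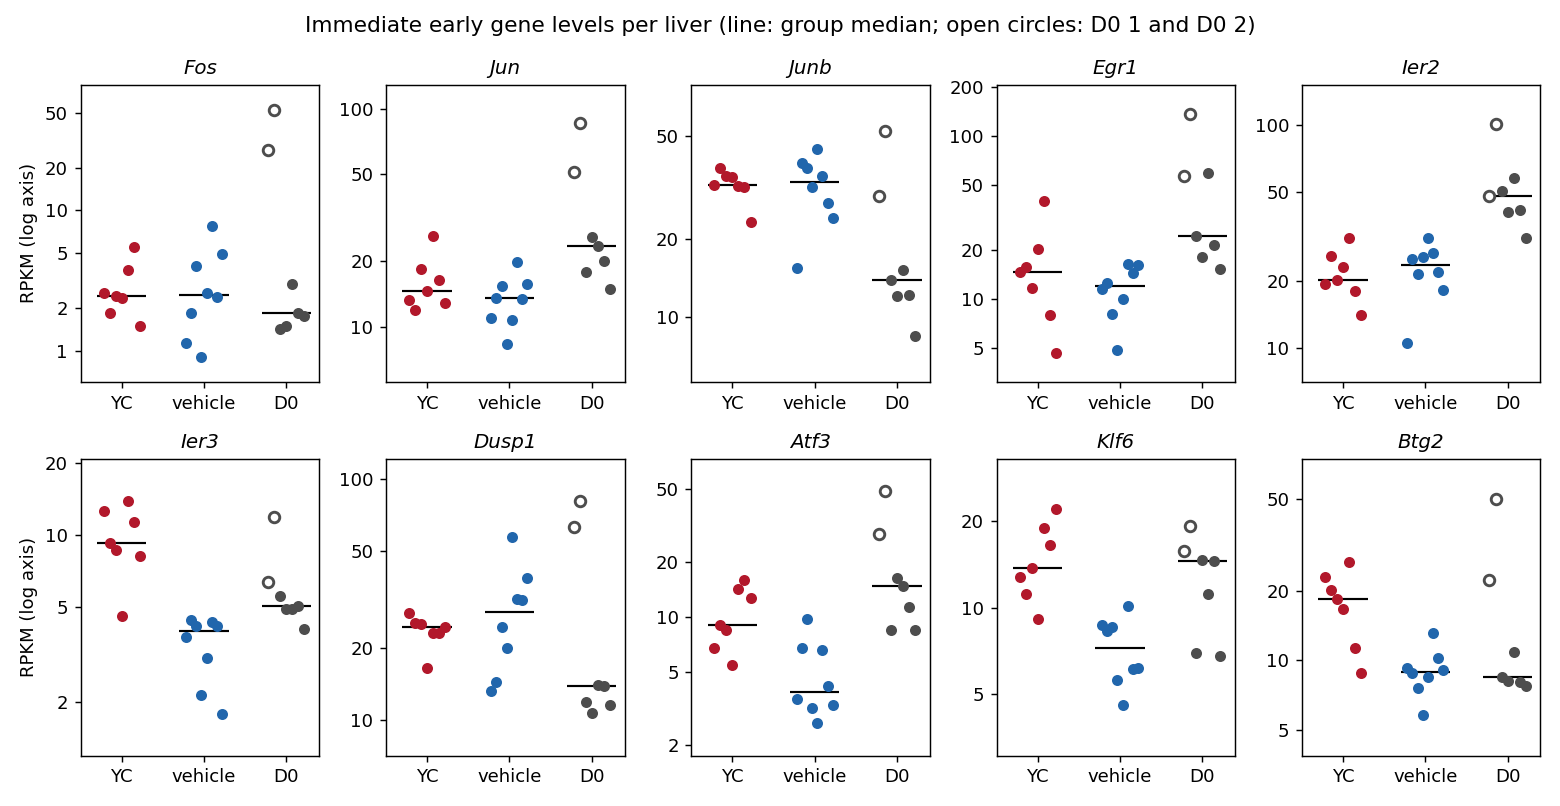
RPKM of the 10 immediate early genes in each liver on log axes, for 7 YC, 8 vehicle and 7 D0 livers, with the group median as a line and D0 1 and D0 2 as open circles. Ier3 is higher in every YC liver than in any vehicle liver, and Ier2 is lower in every vehicle liver than in any D0 liver.

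Livers given YC were then compared with livers given vehicle, the comparison named in the design text, which asks whether YC acted on the transplanted hepatocytes through dedifferentiation. The early genes split into 4 that were higher in YC livers (Ier3, Atf3, Klf6 and Btg2) and 6 that did not pass the test (Fos, Jun, Junb, Egr1, Ier2 and Dusp1), with 0 lower by limma, also at an unadjusted p under 0.05. The test was limma on log2(RPKM + 0.5) over all 12537 genes and all 22 libraries, with Benjamini-Hochberg adjusted p under 0.05. By the same test 50.7% of all genes were called, 44.6% higher and 6.14% lower, so the 4 of 10 is close to the share in the whole table. The median log2 difference was 0.27 over the 10 genes and 0.31 over all genes tested.

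Ier3, the survival regulator, had 4.59, 9.29 and 13.9 RPKM (lowest, median and highest) in YC livers, against 1.79, 3.96 and 4.40 RPKM in vehicle livers. Each of the 7 YC livers exceeded every vehicle liver, a separation that 6.52% of all genes showed in that direction. The log2 difference was 1.36 ± 0.22 (SE, limma adjusted p = 4.16e-05), a 2.56-fold rise. Klf6, a zinc finger factor gene, had 9.14, 13.8 and 22.1 RPKM in YC livers, against 4.57, 7.25 and 10.2 RPKM in vehicle livers. In 6 of the 7 YC livers Klf6 exceeded every vehicle liver, but the share of all genes that did so was not counted. The log2 difference of Klf6 was 0.98 ± 0.22 (SE, limma adjusted p = 0.000880).

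Btg2 had 8.83, 18.4 and 26.6 RPKM in YC livers, against 5.80, 8.93 and 13.1 RPKM in vehicle livers. The 5 YC livers numbered 1 to 5 were above every vehicle liver, while YC 6 and YC 7, at 11.3 and 8.83 RPKM, lay within the vehicle range. YC 6 and YC 7 also held the least Fah of the YC livers, at 41.3 and 31.5 RPKM. The Btg2 difference was 0.89 ± 0.32 (SE, limma adjusted p = 0.0219), and 1.18 without YC 6 and YC 7. Without the library YC 5 it was 0.79 and not called (limma adjusted p = 0.0510). Atf3, a stress-induced leucine zipper factor gene, had 5.51, 9.07 and 16.0 RPKM in YC livers, against 2.63, 3.88 and 9.74 RPKM in vehicle livers. Here the 3 YC livers above the vehicle range were YC 5, YC 6 and YC 7. The Atf3 difference was 1.02 ± 0.33 (SE, limma adjusted p = 0.0135) and 0.80 without YC 6 and YC 7, where the call ended (limma adjusted p = 0.0710). Beside these rises, summed neutrophil transcripts had a median of 213 RPKM for YC and 60.1 RPKM for vehicle. The ranges of these sums overlapped, at 40.0 to 404 and 45.4 to 165 RPKM. Of 9 neutrophil genes tested, 4 were called higher, beside 44.6% of all genes, while S100a8 and S100a9 were not called (limma adjusted p = 0.274 and 0.197). The part of neutrophil transcripts in the result was not tested.

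The 6 other genes overlapped between the groups. Fos had 1.49, 2.45 and 5.49 RPKM in YC livers, against 0.897, 2.50 and 7.75 RPKM in vehicle livers. Its log2 difference was 0.00 with a 95% interval of -1.29 to 1.29. The fit shares 1 estimate of the spread over all groups, and without D0 1 and D0 2 the interval was -0.65 to 0.65. Jun had a median of 14.6 RPKM for YC and 13.5 RPKM for vehicle (interval of the log2 difference -0.33 to 0.83). Junb had a median of 32.3 RPKM for YC and 33.3 RPKM for vehicle (interval -0.51 to 0.64). Ier2 had a median of 20.2 RPKM for YC and 23.5 RPKM for vehicle (interval -0.49 to 0.42). For Jun, Junb and Ier2 these intervals bound a difference to less than 2-fold in either direction. With all libraries the interval of Fos does not, and its narrower interval leaves out 2 libraries singled out for their Fos.

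Egr1 and Dusp1 differed in how widely each group spread. Egr1 had 4.62, 14.6 and 39.5 RPKM in YC livers, against 4.85, 11.9 and 16.3 RPKM in vehicle livers, with YC 5 the highest and YC 7 the lowest (interval of the log2 difference -0.60 to 1.18). Dusp1 had 16.4, 24.3 and 27.9 RPKM in YC livers, against 13.3, 27.9 and 57.4 RPKM in vehicle livers. All YC livers thus lay inside the vehicle range of Dusp1, whose interval was -0.96 to 0.64. The difference in spread was not tested.

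**Figure D3:**
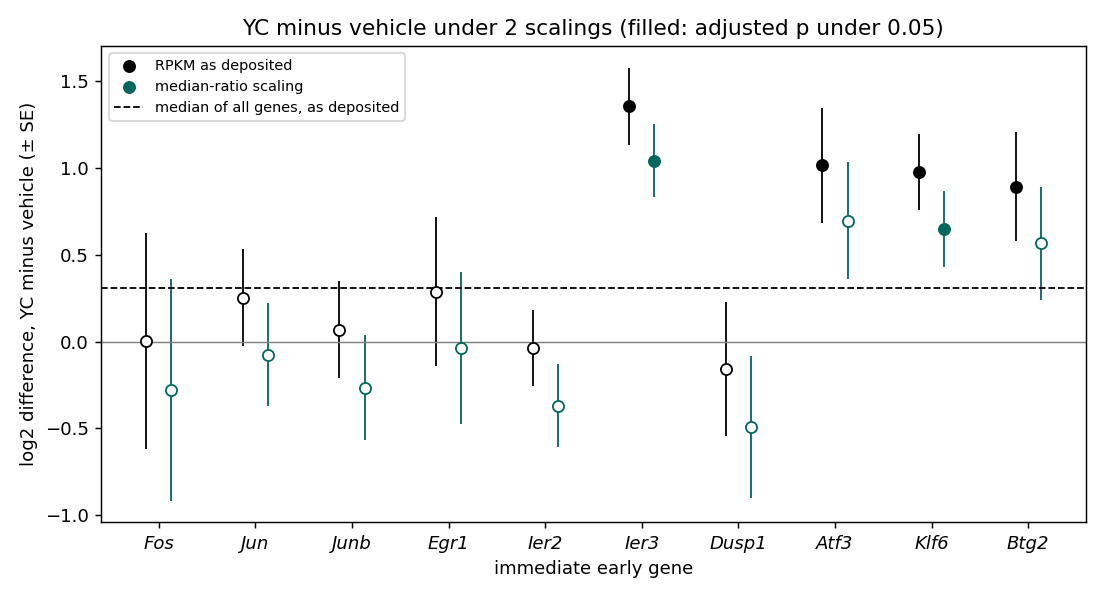
Log2 differences of YC minus vehicle livers with their SE, for RPKM as deposited (black) and after median-ratio scaling (green), filled where the limma adjusted p is under 0.05. The dashed line is the median of all genes as deposited, 0.31, and only Ier3 and Klf6 are filled under both scalings.

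With all 22 libraries in the fit, the calls for Atf3 and Btg2 depended on scaling. The 12537 genes had a median log2 difference of 0.31 as deposited and of 0.02 after median-ratio scaling, and 5587 genes were called higher and 770 lower as deposited, against 2336 and 2076 after scaling. Ier3 was 1.04 (limma adjusted p = 0.000639) and Klf6 was 0.65 (limma adjusted p = 0.0241) after scaling. Atf3 was 0.70 (limma adjusted p = 0.110) and Btg2 was 0.57 (limma adjusted p = 0.183). With the same scaling and without D0 1 and D0 2, both were called, Atf3 at 0.69 (limma adjusted p = 0.0365) and Btg2 at 0.56 (limma adjusted p = 0.0259). With quantile normalization of all libraries, Ier3 and Klf6 were called. Without YC 6 and YC 7 and with median-ratio scaling, Klf6 was 0.51 and not called (limma adjusted p = 0.0914).

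Vehicle livers were compared with D0 livers, which sets livers with transplanted cells after NTBC withdrawal against livers at the start. Most early genes were lower in vehicle livers: Jun, Egr1, Ier2, Ier3, Atf3 and Klf6 fell, Junb rose, and Fos, Dusp1 and Btg2 did not pass the test. Over all genes 58.1% were called, 29.9% lower and 28.2% higher. The median log2 difference was -0.72 over the 10 genes and 0.00 over all genes. The D0 group includes D0 1 and D0 2, and each result is given also without them.

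Ier2, the nuclear early response gene, had 10.6, 23.5 and 31.0 RPKM in vehicle livers, against 31.1, 48.0 and 100 RPKM in D0 livers. All 8 vehicle livers lay below the lowest D0 liver, as 11.7% of all genes did, though the nearest values, 31.0 and 31.1 RPKM, almost touched. The log2 difference was -1.17 ± 0.22 (SE, limma adjusted p = 9.52e-05), and -0.98 without D0 1 and D0 2 (limma adjusted p = 0.000804). Atf3 had 2.63, 3.88 and 9.74 RPKM in vehicle livers, against 8.49, 14.7 and 48.8 RPKM in D0 livers. For Atf3, 7 of 8 vehicle livers were below every D0 liver, a pattern not counted over all genes. The Atf3 difference was -1.71 ± 0.33 (SE, limma adjusted p = 0.000134), and -1.23 without D0 1 and D0 2 (limma adjusted p = 0.00114).

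Jun had 8.36, 13.5 and 19.8 RPKM in vehicle livers, against 14.9, 23.4 and 85.8 RPKM in D0 livers. Its difference was -1.08 ± 0.28 (SE, limma adjusted p = 0.00222), and -0.59 without D0 1 and D0 2 (limma adjusted p = 0.0152). Egr1 had 4.85, 11.9 and 16.3 RPKM in vehicle livers, against 15.2, 24.2 and 137 RPKM in D0 livers. Its difference was -1.63 ± 0.43 (SE, limma adjusted p = 0.00257), and -1.11 without D0 1 and D0 2 (limma adjusted p = 0.0220). The falls of Ier2, Atf3, Jun and Egr1 were therefore called with and without D0 1 and D0 2.

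Ier3 and Klf6 were called lower only with D0 1 and D0 2 in the fit. The mean of Ier3 was 3.48 ± 1.03 RPKM for vehicle (SD, n = 8) and 6.11 ± 2.65 RPKM for D0 (SD, n = 7), a log2 difference of -0.71 (limma adjusted p = 0.00918), and -0.49 without D0 1 and D0 2 (limma adjusted p = 0.0698). The mean of Klf6 was 7.28 ± 1.92 RPKM for vehicle and 12.7 ± 4.64 RPKM for D0 (SD), a log2 difference of -0.72 (limma adjusted p = 0.00738), and -0.51 without D0 1 and D0 2 (limma adjusted p = 0.0674).

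Junb went the other way. It had 15.5, 33.3 and 44.4 RPKM in vehicle livers, against 8.44, 13.9 and 52.3 RPKM in D0 livers, a log2 difference of 0.82 ± 0.28 (SE, limma adjusted p = 0.0144). Without D0 1 and D0 2 the D0 livers reached 15.3 RPKM, almost touching the lowest vehicle liver at 15.5 RPKM, and the difference was 1.29 (limma adjusted p = 2.27e-05). Dusp1 had 13.3, 27.9 and 57.4 RPKM in vehicle livers, against 10.7, 13.9 and 80.7 RPKM in D0 livers, and was not called with all libraries (log2 0.34, limma adjusted p = 0.468). Without D0 1 and D0 2 it was called higher, at 1.05 (limma adjusted p = 0.00174). In the GENCODE annotation the span of Junb overlaps Prdx2 and that of Dusp1 overlaps Ergic1 on the opposite strand, and the sources used here do not say whether counting used strand.

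Fos and Btg2 were not called and changed sign. Fos was -0.73 ± 0.62 (SE, limma adjusted p = 0.327) with all libraries and 0.42 (limma adjusted p = 0.314) without D0 1 and D0 2. Btg2 had 5.80, 8.93 and 13.1 RPKM in vehicle livers, against 7.73, 8.43 and 49.7 RPKM in D0 livers. Its log2 difference was -0.50 with all libraries and 0.04 without D0 1 and D0 2 (limma adjusted p = 0.885). Without those libraries 4 of the 10 genes were called lower and 2 higher, beside 28.4% and 23% of all genes. The median log2 difference was then -0.50 over the 10 genes and -0.03 over all.

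**Figure D4:**
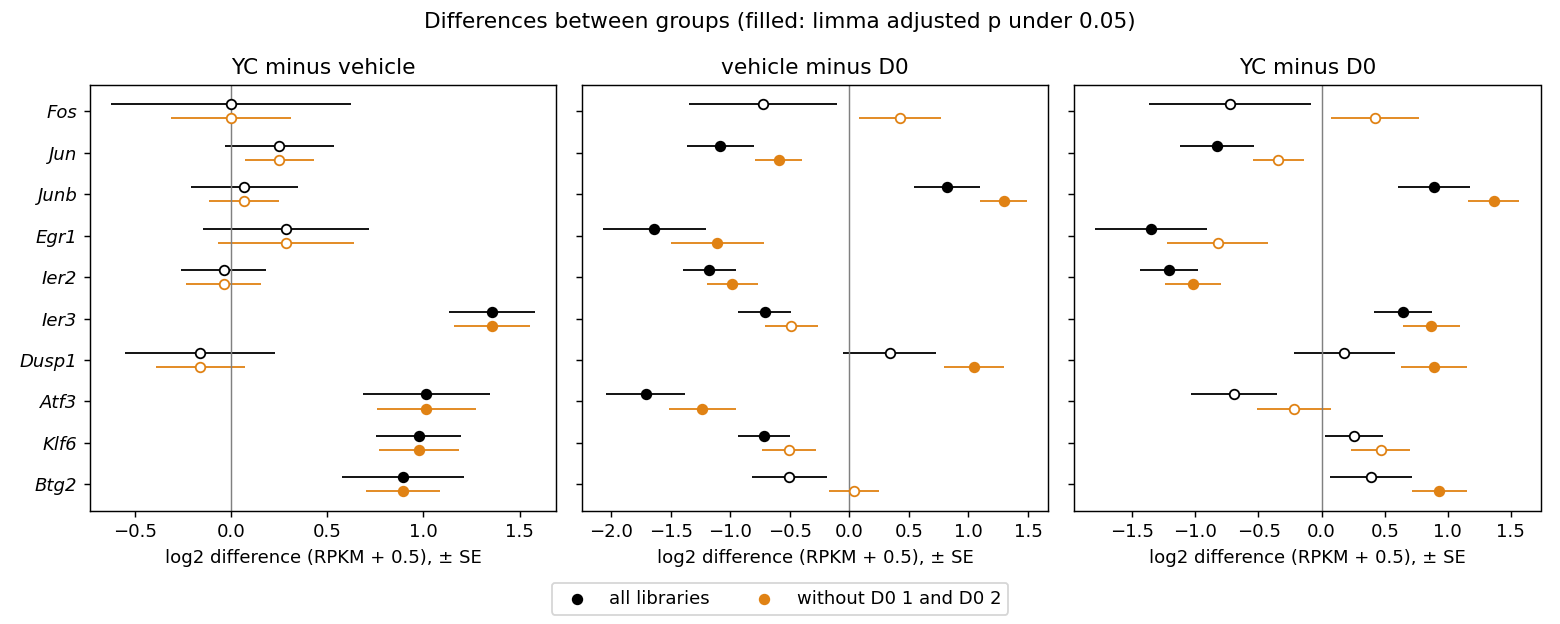
Log2 differences with their SE for the 10 immediate early genes in 3 comparisons, with all 22 libraries (black) and without D0 1 and D0 2 (orange), filled where the limma adjusted p is under 0.05. Ier2 is filled on the low side with and without those libraries in both comparisons with D0, while Dusp1 is filled on the high side only without them.

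YC livers were compared with D0 livers as well, a comparison that shares its YC and D0 samples with those above. Ier2, Egr1 and Jun were lower in YC livers, Junb and Ier3 were higher, and the other 5 genes did not pass the test. Over all genes 53.4% were called, 41.2% higher and 12.3% lower, and the median log2 difference was -0.26 over the 10 genes and 0.25 over all genes. Ier2 had 14.1, 20.2 and 31.3 RPKM in YC livers, against 31.1, 48.0 and 100 RPKM in D0 livers, and 6 of the 7 YC livers lay below every D0 liver, where 7.28% of all genes had at least 6 of them below. Its difference was -1.21 ± 0.23 (SE, limma adjusted p = 0.000101), and -1.02 without D0 1 and D0 2. Egr1 differed by -1.35 (limma adjusted p = 0.0136) and Jun by -0.83 (limma adjusted p = 0.0190), and neither was called without D0 1 and D0 2, at -0.82 and -0.34. The Jun call also ended without the library D0 1 alone (-0.69, limma adjusted p = 0.0525), and the Egr1 call without YC 6 and YC 7 (-0.91, limma adjusted p = 0.0939). With median-ratio scaling and without D0 1 and D0 2, both Egr1 and Jun were called lower. Egr1 was then -1.09 (limma adjusted p = 0.0299) and Jun -0.61 (limma adjusted p = 0.0178).

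Among the higher genes, Junb had a mean of 32.3 ± 4.50 RPKM for YC (SD, n = 7) and 20.5 ± 15.6 RPKM for D0 (SD, n = 7), a log2 difference of 0.89 (limma adjusted p = 0.0116), and 1.36 without D0 1 and D0 2. Ier3 had a mean of 9.80 ± 3.12 RPKM for YC and 6.11 ± 2.65 RPKM for D0 (SD), a log2 difference of 0.65 (limma adjusted p = 0.0211), and 0.87 without D0 1 and D0 2. After median-ratio scaling neither was called, with Junb at 0.58 (limma adjusted p = 0.120) and Ier3 at 0.35 (limma adjusted p = 0.182), and that scaling left 3372 genes called higher and 3401 lower, against 5162 and 1537 as deposited. The Ier3 call also ended without the library D0 7 (0.57, limma adjusted p = 0.0501) and without YC 5 (0.56, limma adjusted p = 0.0528). With median-ratio scaling and without D0 1 and D0 2, Junb was called at 1.09 (limma adjusted p = 0.000476) and Ier3 at 0.61 (limma adjusted p = 0.0161).

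Dusp1 and Btg2 were called higher in YC livers once D0 1 and D0 2 were left out, where 35.3% of all genes were called higher and 10.7% lower. Btg2 was 0.39 with all libraries (limma adjusted p = 0.325) and 0.93 without them (limma adjusted p = 0.00135), and was called at 0.71 without D0 2 alone. Dusp1 was 0.18 with all libraries (limma adjusted p = 0.729) and 0.89 without them (limma adjusted p = 0.00760). With median-ratio scaling and without D0 1 and D0 2, Dusp1 was 0.62 and not called (limma adjusted p = 0.0637). Btg2 was called there, at 0.67 (limma adjusted p = 0.0141). Atf3 was -0.69 (limma adjusted p = 0.0894) with all libraries and -0.22 without D0 1 and D0 2 (limma adjusted p = 0.562). It was called lower, at -0.84, without D0 3 or without D0 7, at -0.90 without YC 6 and YC 7, and after median-ratio scaling (limma adjusted p = 0.0185). Klf6 was 0.26 (limma adjusted p = 0.351) and Fos -0.72 (limma adjusted p = 0.357).

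Whether the other members followed Fos from liver to liver was examined within each group, as 27 relations on the log2 scale. Among the 7 YC livers the Pearson r with Fos ran from -0.09 (Dusp1) to 0.60 (Jun) and 0 of 9 relations had an exact permutation p under 0.05, before or after adjustment. Without YC 6 and YC 7, the libraries farthest in Fos, r ran from -0.87 (Junb) to 0.89 (Jun), in too few livers for a test. The median r was then 0.60, against 0.25 with all YC livers. Among the 8 vehicle livers Jun followed Fos (Pearson r 0.91, exact permutation p = 0.00208, adjusted over 27 relations 0.0281; Spearman rho 0.83, exact permutation p = 0.0154, adjusted 0.208), and r was 0.76 without the libraries vehicle 4 and vehicle 6. Among the 7 D0 livers 6 of 9 relations passed by Pearson r, but D0 1 and D0 2 stand far from the other 5. In those 5 livers, too few for a test, r was 0.25 for Jun, 0.36 for Junb and 0.38 for Atf3, and 0.83 for Egr1, 0.75 for Dusp1 and 0.84 for Btg2. By Spearman rho 0 of the 27 relations passed after adjustment, and 3 had an exact permutation p under 0.05 before it.

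By the deviation of each library from its group mean over all 22 libraries, the genes outside the 10 most like Fos were Nr4a1 (r = 0.88), Apold1 (0.85), Rgs1 (0.85), Il1b (0.83) and Ppp1r15a (0.82). Those most like Ier3 were Hbegf (0.88), Cd14 (0.87), Cerk (0.86), Plaur (0.83) and Arl4c (0.83). Between the members, r with Fos ran from 0.49 for Klf6 to 0.91 for Jun, and r with Ier3 was highest for Atf3 at 0.71. These values are descriptions, in which the points share D0 1 and D0 2.

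The remaining immediate early genes were read from a list of 45, of which 38 were tested. In YC against vehicle livers 19 were higher, 3 lower and 16 not called, with a median log2 difference of 0.41. Over all genes 44.6% were higher and 6.14% lower, with a median of 0.31. After median-ratio scaling 11 of the 38 were higher and 7 lower, with a median of 0.10, beside 2336 and 2076 of all 12537 genes. The largest differences on the high side were those of Dusp4 and Dusp6, which encode dual-specificity phosphatases, and of the kinase gene Pim1. The mean of Dusp4 was 6.46 ± 2.65 RPKM for YC and 1.55 ± 0.75 RPKM for vehicle (SD), a log2 difference of 1.75 (limma adjusted p = 5.94e-06). That of Dusp6 was 49.9 ± 22.2 RPKM for YC and 18.1 ± 2.54 RPKM for vehicle (log2 difference 1.33), and that of Pim1 16.7 ± 3.31 RPKM for YC and 6.27 ± 1.36 RPKM for vehicle (log2 difference 1.35). Dusp4 and Dusp6 thus differed where Dusp1, of the same phosphatase family, did not pass the test, and the difference between these genes was not tested. Against D0 livers, Dusp4, Dusp6 and Pim1 were all called lower in vehicle livers, at -2.03, -2.24 and -1.11 (log2). In YC livers none was called higher than in D0 livers. Dusp6 was called lower there, at -0.91, while Dusp4 at -0.28 and Pim1 at 0.24 were not called (limma adjusted p = 0.355 and 0.163).

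The 3 lower genes of this list were Klf2, a flow-responsive endothelial factor (log2 -1.09, limma adjusted p = 0.0240), Errfi1, an inhibitor of the Egf receptor (-0.61), and the AP-1 gene Jund (-0.57). Jund had a mean of 53.8 ± 11.6 RPKM for YC and 84.2 ± 30.0 RPKM for vehicle (SD). Among 12 tested AP-1 partners, 4 were higher and 3 lower (2 and 5 after median-ratio scaling), led by Fosl2 at 1.27 and Mafg at 0.86 on the high side. Fosl2, which the list of other immediate early genes also holds, had a mean of 7.76 ± 1.71 RPKM for YC, 3.03 ± 1.14 RPKM for vehicle and 15.1 ± 3.53 RPKM for D0 (SD). Of 25 upstream kinases and factors 17 were higher and 0 lower as deposited, with 5 and 2 after median-ratio scaling. Rps6ka1 (0.93), Map2k1 (0.84) and Atf1 (0.77) had the largest differences as deposited. The shares over all genes as deposited were 44.6% higher and 6.14% lower.

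Heat shock, glucocorticoid response and clock genes were read beside the early genes. Over all genes 44.6% were higher with YC than with vehicle and 6.14% lower. Of 10 heat shock genes 5 were higher with YC than with vehicle and 0 lower (3 and 0 after median-ratio scaling), with Hspb1 at 1.67, Hsp90aa1 at 1.01 and Bag3 at 0.78 (log2). In vehicle against D0 livers 7 of these 10 heat shock genes were lower and 0 higher, beside 29.9% and 28.2% of all genes. Of 10 glucocorticoid response genes 5 were higher with YC than with vehicle (led by Cdkn1a at 1.64, Mt2 at 1.61 and Fkbp5 at 1.06) and 2 lower (Tsc22d3 at -1.30 and Tat at -1.06), against 3 and 2 after median-ratio scaling. Cdkn1a is also a p53 target and Mt2 a metal-responsive gene. Of 11 clock genes 3 were higher (Cry1, Per3 and Tef) and 0 lower, and 0 were called by limma after median-ratio scaling. Against D0 livers, 4 of these 11 were higher and 4 lower in vehicle livers, beside 28.2% and 29.9% of all genes. In YC livers 5 were higher than in D0 livers and 4 lower, beside 41.2% and 12.3% of all genes.

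Markers of other cells also differed between the groups. The summed RPKM of 10 neutrophil genes ran from 40.0 to 404 in YC livers, from 45.4 to 165 in vehicle livers and from 5.15 to 58.2 in D0 livers. With YC 4 of the 9 tested were higher than with vehicle, close to the 44.6% of all genes. Ly6g, a defining neutrophil marker, was listed at 0 in some D0 livers. Summed macrophage genes ran from 208 to 549 in YC livers, from 277 to 966 in vehicle livers and from 90.4 to 168 in D0 livers. In vehicle against D0 livers 8 of 10 macrophage genes and 8 of 9 neutrophil genes were higher, beside 28.2% of all genes. Hepatocyte genes summed to between 32232 and 59370 in YC livers, 60021 and 94511 in vehicle livers and 45323 and 64408 in D0 livers. The part of any cell type in the early gene levels was not tested.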

How the data were processed

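Per the labels' protocols, RNA of 22 mouse livers was extracted with TRIzol and selected with polyT before sequencing. The authors deposited 1 table of RPKM with 1 column per library, and groups were taken from the titles. Per the submitters' processing notes, TopHat 1.4.1, Cufflinks 1.3.0 and the build mm10 are listed, with no role stated. The sources used here name neither the gene annotation nor the use of strand. Steps of low values gave depths relative to D0 1 of 0.786 to 1.295 for YC, 0.799 to 1.124 for vehicle and 0.799 to 1.036 for the other D0 libraries. Absolute depth was not recovered, so all errors come from variation among libraries.

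The 12537 genes reaching 0.5 RPKM in 7 or more libraries were fitted as log2(RPKM + 0.5) with limma 3.58.1 (moderated with a trend and robustly, with statmod 1.5.0) in R 4.3.3, in 1 model of 3 groups without covariates. P-values were two-sided and Benjamini-Hochberg adjusted over all genes, with calls made below 0.05. A fold change on this scale understates that of low genes. The fit was tested on simulated data. Correlations were tested by exact permutation in Python 3.11.15 with numpy 2.4.6, pandas 2.3.3 and scipy 1.17.1, and figures drawn with matplotlib 3.10.9.

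The members and gene lists were chosen with earlier results of these data known. All 10 members were named. For the other lists the rule named the 3 called genes with the largest difference in each direction in YC minus vehicle, and the 5 genes most like Fos and Ier3. Genes of D0 1 and D0 2 were named after their values were seen. Same-numbered libraries had correlated deviations (r over 0.1) in 5 of 21 pairs, so replicate numbers were not taken as pairs. Alternatives changed the pseudocount, filter, scaling, weights, libraries and model.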

Additional observations from a re-analysis of the deposited data

Results flagged for a closer look

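Among 30 combinations of a gene and a group, 3 had a liver far from the rest by Dixon's 95% criterion on the log2 scale, where chance gives about 1 in 20. The criterion sets the gap between the farthest liver and its neighbour against the range, so livers that stand apart together can hide each other. Fos in D0 livers, with D0 1 and D0 2 both high, was not flagged. Junb in YC livers had its lowest value, 23.3 RPKM, in YC 7, with the other 6 livers between 31.6 and 37.7 RPKM. Ier3 in D0 livers had its highest value, 11.9 RPKM, in D0 2. Dusp1 in YC livers had its lowest value, 16.4 RPKM, in YC 4, with the other 6 livers between 22.9 and 27.9 RPKM.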

How the results depend on the processing

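The number of immediate early genes called in YC against vehicle livers was 4 and became 2 with median-ratio scaling, 2 with quantile normalization and 2 without YC 6 and YC 7 with median-ratio scaling. Ier3 and Klf6 were the 2 called with either scaling of all libraries. Without YC 6 and YC 7 with median-ratio scaling, Ier3 and Btg2 were called. There the calls of Klf6 (0.51, limma adjusted p = 0.0914) and Atf3 (0.51, limma adjusted p = 0.292) ended. It was 3 without YC 6 and YC 7, and 3 to 4 with 1 library left out. The count stayed at 7 in vehicle against D0 livers and between 4 and 6 in YC against D0 livers with 1 library left out. The replicate block changed no call of these 10 genes, with 4 called for YC against vehicle, 7 for vehicle against D0 and 5 for YC against D0. The 2 settings that join scaling with left-out libraries were chosen after seeing the data. The cause of each change below was not tested.

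Sign changes among the members fell on values that were not called. For Fos, YC minus vehicle, the log2 difference was -0.016 with a pseudocount of 1, -0.16 with array weights, -0.28 with median-ratio scaling, -0.40 with quantile normalization, -0.050 without YC 6 and YC 7, -0.31 without them with median-ratio scaling, -0.28 without D0 1 and D0 2 with median-ratio scaling, and -0.17 to 0.20 with 1 library left out. For Jun, YC minus vehicle, it was -0.077 with median-ratio scaling, -0.078 with quantile normalization, -0.083 without D0 1 and D0 2 with median-ratio scaling and -0.013 without YC 6 and YC 7 with that scaling. For Junb, YC minus vehicle, the values in the same order were -0.27, -0.13, -0.27 and -0.15, and -0.068 to 0.15 with 1 library left out. For Egr1, YC minus vehicle, they were -0.038 with median-ratio scaling, -0.044 with quantile normalization and -0.045 without D0 1 and D0 2 with median-ratio scaling. For Ier2, YC minus vehicle, it was 0.12 without YC 6 and YC 7, and -0.18 to 0.057 with 1 library left out. Dusp1, YC minus vehicle, ran from -0.29 to 0.0023 with 1 library left out.

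Without D0 1 and D0 2, Fos, vehicle minus D0, was 0.42, Btg2, vehicle minus D0, 0.040 and Fos, YC minus D0, 0.42, and with median-ratio scaling of the same libraries 0.48, 0.11 and 0.20. Dusp1, YC minus D0, was -0.13 with median-ratio scaling, -0.060 with quantile normalization and -0.12 without YC 6 and YC 7 with median-ratio scaling, and Klf6, YC minus D0, -0.049, -0.013 and -0.19. Without the 2 libraries farthest in Fos, r with Fos was -0.87 for Junb in YC livers, -0.57 for Ier3, -0.31 for Klf6 and -0.38 for Btg2 in vehicle livers, and -0.16 for Ier3 in D0 livers. The number of relations with Fos that passed was 7 as reported. After median-ratio scaling, Ier2 and Ier3 in D0 livers passed as well. Their r was then 0.80 (exact permutation adjusted p = 0.0355) and 0.91 (exact permutation adjusted p = 0.0476).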
